A study of Mus musculus with 51 samples.

Results

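The DNA-dependent protein kinase (DNA-PK) and its partners in DNA end joining were examined in transcript profiles of BALB/c and C57BL/6 mice. The 6 genes taken were Prkdc, Xrcc5, Xrcc6, Xrcc4, Lig4 and Parp3, of 11807 genes named on the array, and every probe set annotated to one of these symbols alone was used. This gave 7 of 22626 probe sets, namely 1 each for Prkdc, Xrcc5 and Xrcc6 and 2 each for Xrcc4 and Parp3. Lig4 had no such probe set, so 5 of the 6 genes have values here.

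Cells rejoin most DNA double-strand breaks by non-homologous end joining. The Ku heterodimer, made of the Xrcc5 and Xrcc6 products, binds the broken ends and recruits the kinase subunit encoded by Prkdc, and the Xrcc4 product then holds DNA ligase IV, encoded by Lig4, at the ends to be sealed. Parp3 encodes an ADP-ribosyltransferase that senses strand breaks and assists this joining. BALB/c mice are known for a variant form of Prkdc and for radiosensitivity of the mammary gland (MG), whereas C57BL/6 mice are the more resistant strain. The arrays measured transcripts, and neither protein nor kinase activity was measured.

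The study profiled 51 samples in 14 groups, 1 array per mouse, all from virgin females. MG, with the lymph node taken out, came from mice that received 4 weekly X-ray fractions from 8 weeks of age, each of 7.5 cGy (low dose, LD), of 1.8 Gy (high dose, HD) or sham, and was taken 4 hr or 1 month after the last one. BALB/c groups held 3 sham, 4 LD and 4 HD mice at 4 hr and 3 sham, 2 LD and 4 HD mice at 1 month, and C57BL/6 groups held 3 sham, 4 LD and 4 HD mice at 4 hr and 4 of each at 1 month. Cardiac blood came from 4 mice per strain that were 9 weeks old and not irradiated. The labels name no engineered allele in either strain. In MG each strain was hybridised on its own plate, so strain and plate cannot be told apart there. The 8 blood arrays shared 1 plate, with BALB/c in plate columns 2 to 5 and C57BL/6 in columns 6 to 9. Strain and plate position thus went together in blood.

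All values are log2 expression as deposited, and differences are on the same scale, BALB/c minus C57BL/6 or irradiated minus sham. Calls were made with limma at an adjusted p under 0.05, after Benjamini-Hochberg adjustment over all 22626 probe sets. The level of a probe set also depends on its probes, so the level of a gene was not set against that of another gene. Whether arrays of compared groups overlapped is given as description only. The share of all probe sets without overlap is not given, and groups this small can separate by chance.

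Markers of the labelled tissues were present, with 9 of 13 luminal epithelium genes and all 6 adipocyte genes above the array median in MG and all 7 B cell, 7 T cell and 7 neutrophil genes above it in blood. Some arrays also carried transcripts of other tissues, taken here as a mean of a marker list more than 2 log2 units above the median array. In MG this held for 10 of 43 arrays, among them 3 C57BL/6 arrays for brown adipocyte genes and 5 arrays for skeletal muscle genes. It also held for BALB/c LD 4 hr replicate 1 by skin and hair genes. BALB/c HD 1 month replicate 1 was marked by B cell genes, with a list mean of 8.05. In blood it held for 2 of 8 arrays. Liver genes there averaged 7.33 in BALB/c replicate 2 and 13.19 in C57BL/6 replicate 4, against 3.74 to 4.98 in the others. In bulk tissue, fewer cells of a type and less RNA per cell cannot be told apart. Radiation response was visible in both strains: 4 hr after HD, the cell-cycle inhibitor Cdkn1a rose by 3.36 in BALB/c and by 2.54 in C57BL/6 MG (adjusted p = 6.17e-06 and 0.00289), and 11 and 8 of 13 p53 target genes rose.

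Upstream sequences of the genes that the results turn on are given from RefSeq (GRCm38.p6, the C57BL/6J reference), each as the 250 bases before an annotated start in the direction of transcription. The table holds such a window for 5 of the 6 genes and has none for Prkdc. Parp3 and Xrcc6 are shown because their transcripts differed between strains in MG, and Xrcc5 because it encodes the partner of Xrcc6 and had no such difference. Capitals mark matches to the letters searched, which do not overlap each other in these windows.
Parp3, chr9:106476950-106477199, minus strand: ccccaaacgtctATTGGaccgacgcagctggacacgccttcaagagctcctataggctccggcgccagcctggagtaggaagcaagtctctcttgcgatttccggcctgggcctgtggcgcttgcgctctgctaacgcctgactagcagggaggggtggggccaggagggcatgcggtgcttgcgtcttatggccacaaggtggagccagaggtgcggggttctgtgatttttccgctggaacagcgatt
Xrcc6, chr15:82016119-82016368, plus strand: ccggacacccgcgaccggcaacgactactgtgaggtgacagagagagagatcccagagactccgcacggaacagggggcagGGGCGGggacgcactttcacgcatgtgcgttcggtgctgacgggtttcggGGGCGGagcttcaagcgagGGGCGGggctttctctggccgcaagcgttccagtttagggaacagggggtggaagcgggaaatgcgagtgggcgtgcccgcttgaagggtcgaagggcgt
Xrcc5, chr1:72307171-72307420, plus strand: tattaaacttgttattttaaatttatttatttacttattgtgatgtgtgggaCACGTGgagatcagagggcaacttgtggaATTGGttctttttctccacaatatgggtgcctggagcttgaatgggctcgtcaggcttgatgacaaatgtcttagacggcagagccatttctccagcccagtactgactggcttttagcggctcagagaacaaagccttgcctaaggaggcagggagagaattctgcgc

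The GC box was searched by the letters GGGCGG, the CCAAT box by its name, the ETS core by CCGGAAG, the NRF1 core by GCGCATGC, the E-box by CACGTG and the TATA box by TATAAA, each on both strands. The Parp3 window held 1 CCAAT match, on the other strand, 234 to 238 bases before the start. The Xrcc6 window held 3 GGGCGG matches, at 95 to 100, 114 to 119 and 164 to 169 bases before this start, which lies inside the annotated span of the gene. In the Xrcc5 window there was 1 CACGTG match at 193 to 198 bases and 1 CCAAT match on the other strand at 165 to 169 bases. Of all 32851 windows of this length, 32.7% held GGGCGG, 33.8% CCAAT, 6.02% CACGTG, 6.91% CCGGAAG, 2.26% GCGCATGC and 12.4% TATAAA. GC content was 61.2% for Parp3, 65.2% for Xrcc6 and 44.8% for Xrcc5, with a median of 52.4% over all windows. These are matches of letters in the reference strain, and BALB/c bases were not read.

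Whether the transcript of the DNA-PK catalytic subunit differs between the strains was asked first. Prkdc (1451576_at, chromosome 16 from 15637444 to 15842239) was not called in blood or in MG. In blood its values were 5.12, 5.60, 5.42 and 5.14 in BALB/c and 5.33, 5.03, 5.44 and 4.77 in C57BL/6, and the strains overlapped. The difference was 0.18 (SE 0.18, 95% confidence interval −0.24 to 0.59). In sham MG the values were 6.75, 6.53 and 6.52 at 4 hr and 6.69, 6.62 and 6.81 at 1 month in BALB/c, against 6.76, 7.08 and 6.74 and 6.67, 6.33, 6.44 and 6.49 in C57BL/6. BALB/c was thus lower than C57BL/6 at 4 hr (−0.26) and higher at 1 month (0.22), with overlap at both times, and the mean difference was −0.02 (SE 0.08, interval −0.20 to 0.16, adjusted p = 0.925 from limma). Over all MG arrays Prkdc lay between 6.52 and 7.08 in the 20 BALB/c arrays (median 6.74) and between 6.33 and 7.08 in the 23 C57BL/6 arrays (median 6.71). Irradiated MG differed by 0.04, also not called. The BALB/c mean was the lower one in the 3 matched groups of 4 hr and the higher one in the 3 of 1 month, with overlap in all 6.

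The Ku subunits did not behave alike. Xrcc5 (1451968_at), which encodes Ku80 on chromosome 1 from 72307417 to 72394953, gave a difference of −0.05 in sham MG (SE 0.11, interval −0.29 to 0.19) and 0.10 in irradiated MG, neither called, and its MG values ran from 5.36 to 6.40 in BALB/c and from 5.11 to 6.34 in C57BL/6. In blood it was 4.39, 4.51, 4.43 and 4.60 in BALB/c and 4.45, 4.52, 4.73 and 5.03 in C57BL/6, a difference of −0.20 (SE 0.14, interval −0.52 to 0.13) that was not called.

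Xrcc6 (1417437_at), which encodes Ku70 on chromosome 15 from 81987833 to 82040085, was lower in BALB/c MG. Sham values at 4 hr were 6.80, 6.24 and 6.60 in BALB/c against 7.69, 8.01 and 7.53 in C57BL/6. At 1 month they were 6.59, 6.75 and 6.68 against 7.18, 7.11, 7.14 and 7.21. Every sham BALB/c array lay below every C57BL/6 array of its time. The difference was −0.84 (SE 0.10, interval −1.05 to −0.63, adjusted p = 0.00013 from limma). Irradiated MG, made up of other mice on the same plates, gave −0.76 (SE 0.08, adjusted p = 1.23e-08). By matched group the differences were −1.20 in sham, −0.96 in LD and −1.16 in HD at 4 hr, and −0.49, −0.21 and −0.72 at 1 month, with no overlap in 5 of the 6 and overlap in LD at 1 month. Taken alone, the sham arrays of 1 month gave −0.49 and were not called (adjusted p = 0.0714).

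Blood gave a different picture for Xrcc6. Its values there were 7.03, 4.97, 5.07 and 6.82 in BALB/c and 5.17, 5.18, 5.85 and 7.50 in C57BL/6, so each strain held arrays near 5 and near 7. The mean difference was 0.05 with a wide error (SE 0.68, interval −1.53 to 1.63, adjusted p = 0.991), and this interval covers differences as large as that of MG. The BALB/c arrays with high Xrcc6, replicates 1 and 4, had T cell list means of 9.03 and 9.07 and B cell means of 8.50 and 8.49, against 8.17 and 8.50 for T cell and 9.42 and 9.44 for B cell genes in replicates 2 and 3. The C57BL/6 array with high Xrcc6, replicate 4, had a B cell mean of 7.17, against 9.24 to 9.30 in its group, a T cell mean of 8.25, against 8.07 to 8.23, and the liver transcripts given above. The part of these transcripts in the Xrcc6 values was not tested. Without both arrays that held liver transcripts the difference was 0.90 and not called.

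**Figure D1:**
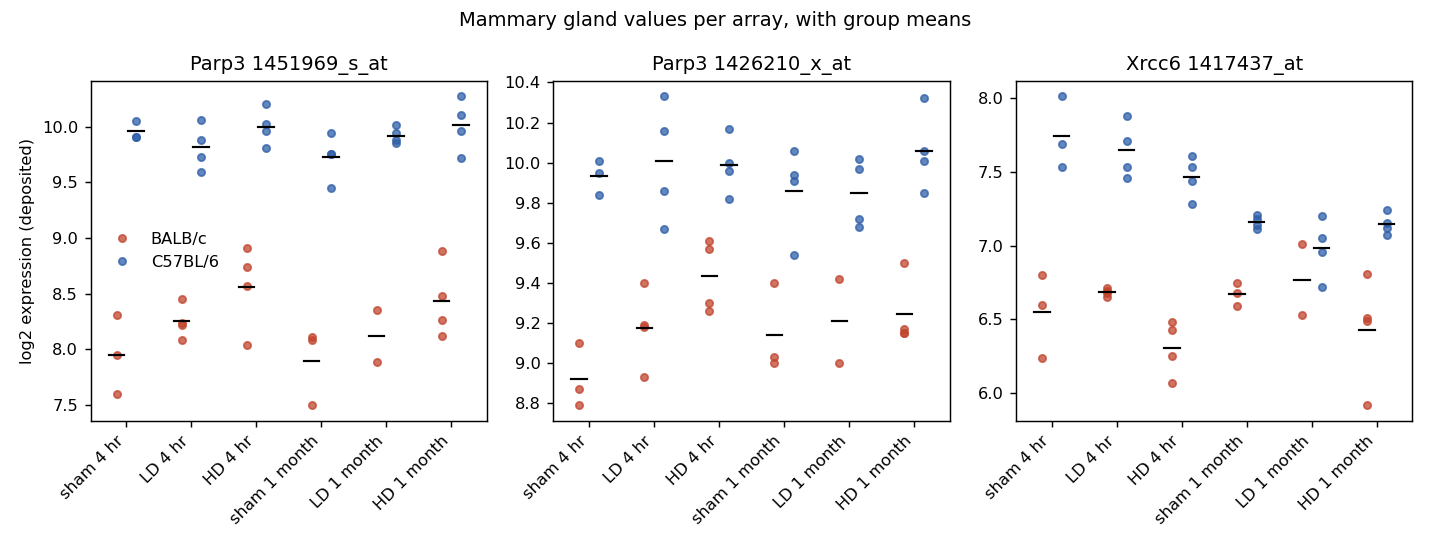
Deposited log2 expression (vertical axis) of both Parp3 probe sets and of Xrcc6 in MG, 1 point per array, by treatment and time (horizontal axis) and strain (colour), with group means as short bars. For both Parp3 probe sets all 23 C57BL/6 arrays lie above the BALB/c arrays of the same treatment and time, and for Xrcc6 this holds in 5 of 6 matched groups.

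The ligation step was represented by Xrcc4 alone, which lies on chromosome 13 from 89848914 to 90089608. Neither of its probe sets was called in sham MG, where the differences were −0.16 for 1424601_at (SE 0.07, adjusted p = 0.196) and −0.27 for 1424602_s_at (SE 0.11, adjusted p = 0.132). In irradiated MG 1424602_s_at was called at −0.22 (SE 0.08, adjusted p = 0.0362), with values of 4.90 to 5.71 in BALB/c overlapping those of 5.23 to 5.93 in C57BL/6, and leaving out any of 9 of the 30 arrays ended the call (adjusted p up to 0.163). The other probe set was at −0.09 and not called. In blood the 1424601_at values were 5.89, 5.68, 5.88 and 5.85 in BALB/c and 5.70, 5.69, 5.56 and 5.56 in C57BL/6, with a difference of 0.20 (SE 0.09) that was not called, and 1424602_s_at differed by 0.22, not called either. The sign in blood was opposite to that in MG for both probe sets, but the difference between tissues was not tested.

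Parp3 had the largest strain difference of the 7 probe sets in both tissues. It lies on chromosome 9 from 106470322 to 106476949 and was lower in BALB/c. In blood 1451969_s_at stood at 4.76, 5.01, 4.93 and 4.75 in BALB/c and at 7.18, 6.42, 6.98 and 6.73 in C57BL/6. The strains did not overlap, and the gap between them was wider than the spread within either. The difference was −1.96 (SE 0.17, interval −2.35 to −1.57, adjusted p = 0.0031 from limma), a 3.89-fold lower level. It was the only 1 of the 7 probe sets called in blood, where 0.482% of all probe sets were called, and 2 of the 7 had an unadjusted p under 0.05. Without both arrays that held liver transcripts it was −2.04 and called (adjusted p = 0.000883), whereas with the replicate number as a block (−1.96, adjusted p = 0.0914) or the plate column as a covariate (−2.14, adjusted p = 0.409) it was not called. The strains share no plate column in blood, so this covariate largely follows strain. The second probe set, 1426210_x_at, read 5.68, 6.02, 6.24 and 5.78 in BALB/c and 7.29, 6.25, 6.80 and 6.36 in C57BL/6, without overlap but with the closest arrays of the strains nearly level. Its difference of −0.75 (SE 0.24) was not called (adjusted p = 0.414).

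**Figure D2:**
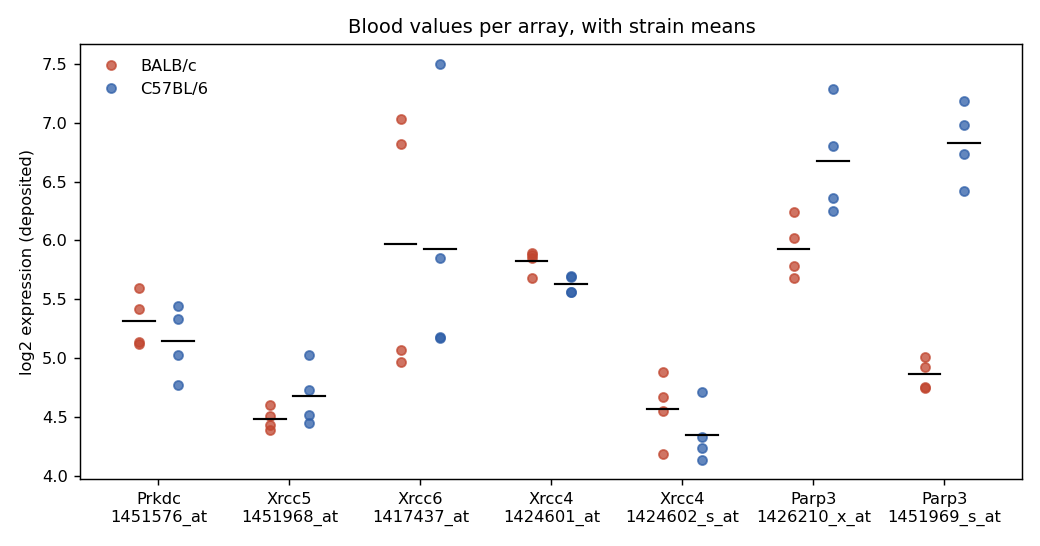
Log2 expression of the 7 probe sets in blood, 1 point per array with strain means as bars, 4 BALB/c and 4 C57BL/6 mice. Parp3 1451969_s_at lies at 4.75 to 5.01 in BALB/c and 6.42 to 7.18 in C57BL/6, whereas Xrcc6 runs from about 5 to above 6.8 within each strain.

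In sham MG, Parp3 1451969_s_at stood at 7.95, 7.60 and 8.31 at 4 hr and 8.11, 8.08 and 7.50 at 1 month in BALB/c. C57BL/6 had 9.91, 10.05 and 9.91 at 4 hr and 9.75, 9.94, 9.45 and 9.75 at 1 month. Each C57BL/6 array was above each BALB/c array, with means of 9.84 and 7.92 and a difference of −1.92 (SE 0.13, interval −2.20 to −1.63, adjusted p = 1.12e-06, 3.78-fold lower). By 1426210_x_at the BALB/c values were 8.87, 8.79 and 9.10 at 4 hr and 9.40, 9.03 and 9.00 at 1 month, and the C57BL/6 values 9.84, 9.95 and 10.01 and then 10.06, 9.94, 9.54 and 9.91. These did not overlap either, at a smaller difference of −0.87 (SE 0.10, adjusted p = 0.000114). In all, 3 of the 7 probe sets were called in sham MG, all lower in BALB/c, beside 9.14% of all probe sets, and 5 of 7 had an unadjusted p under 0.05. Without arrays that held other tissue the differences were −1.86 and −0.88 for the Parp3 probe sets and −0.80 for Xrcc6, all called, with 1 C57BL/6 array left at 4 hr.

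The irradiated mice, which are separate animals, gave −1.59 for 1451969_s_at (SE 0.09, adjusted p = 8e-14) and −0.71 for 1426210_x_at (SE 0.07, adjusted p = 3.51e-08). Matched groups ranged from −2.0 in sham to −1.43 in HD, both at 4 hr, for 1451969_s_at and from −1.01 to −0.55 in the same groups for 1426210_x_at, and neither probe set had strains that overlapped in any of the 6. Of the 7 probe sets 4 were called in irradiated MG, all lower in BALB/c, where 25.3% of all probe sets were called. In the order of the 12 MG group means, 10 of 11 neighbouring pairs overlapped for each Parp3 probe set, and the remaining pair was the step from the lowest C57BL/6 to the highest BALB/c group. For Xrcc6 the remaining step lay within C57BL/6, between HD 4 hr and sham 1 month, and for Prkdc, Xrcc5 and both Xrcc4 probe sets all 11 neighbouring pairs overlapped.

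**Figure D3:**
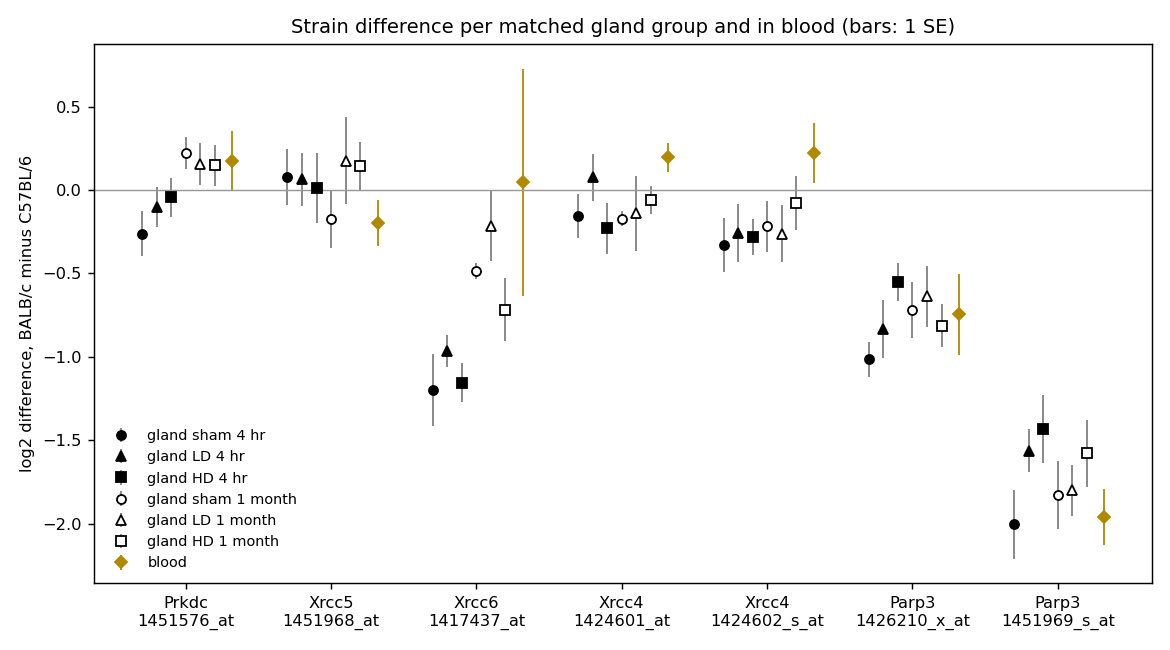
BALB/c minus C57BL/6 differences on the log2 scale (vertical axis) for the 7 probe sets (horizontal axis) in the 6 matched MG groups and in blood, with bars of 1 SE. Parp3 1451969_s_at lies at or below −1.43 in every group, Xrcc6 lies from −1.20 to −0.21 in MG and at 0.05 with a wide error in blood, and Prkdc and Xrcc5 scatter around 0.

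Both Parp3 probe sets come from the same source record, yet they gave different sizes of strain difference, and this was tested directly. In sham MG 1426210_x_at exceeded 1451969_s_at by 1.11 in BALB/c and by 0.06 in C57BL/6, a strain difference of 1.05 (exact permutation test, two-sided, p = 0.00143, the smallest that 700 arrangements allow, adjusted p = 0.00571 over 4 tests). In blood the excess was 1.07 in BALB/c and −0.15 in C57BL/6, a difference of 1.22 (exact p = 0.0286, the smallest that 70 arrangements allow, adjusted p = 0.0571). By contrast, the gap between the Xrcc4 probe sets differed between strains by −0.02 in blood and 0.11 in sham MG (exact p = 0.886 and 0.394). In the maker's naming, the suffix s marks probes that match several transcripts and x marks probes that may also pair with other sequences. Whether sequence differences between the strains under the probes play a part was not tested.

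The second question was whether irradiation changed these transcripts. Each of 8 groups was set against sham of its strain and time, so that LD and HD shared their sham mice. Over 56 probe set values, 1 was called and 6 had an unadjusted p under 0.05. The called value was Parp3 1426210_x_at in BALB/c, 4 hr after HD, at 9.26, 9.30, 9.57 and 9.61 against 8.87, 8.79 and 9.10 in sham. All HD arrays were above all sham arrays, and the difference was 0.52 (SE 0.14, interval 0.21 to 0.82, adjusted p = 0.0457), the only call among the 7 where 5.14% of all probe sets were called. The call ended when any one of 5 arrays was left out (HD replicates 2, 3 and 4, and sham replicates 1 and 2, adjusted p up to 0.163). It also ended with the replicate number as a block (0.53, adjusted p = 0.0755) and with the plate column as a covariate (0.55, adjusted p = 0.382).

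The companion probe set 1451969_s_at read 8.04, 8.91, 8.57 and 8.74 after HD against 7.95, 7.60 and 8.31 in sham. These groups overlapped, and the difference of 0.61 (SE 0.22) was not called (adjusted p = 0.116). One month after HD it was 8.26, 8.48, 8.12 and 8.88 against 8.11, 8.08 and 7.50, at 0.54 without overlap but not called (adjusted p = 0.39). In C57BL/6, 4 hr after HD, the differences were 0.05 and 0.04, and 1 month after HD 1451969_s_at was at 0.29 (adjusted p = 0.215). The strain difference of the 4 hr HD response was 0.46 for 1426210_x_at and 0.57 for 1451969_s_at, and neither passed adjustment (adjusted p = 0.787 for both, from limma). The responses of the strains were thus not shown to differ.

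Marker list means of the HD tissue also differed from sham, and these differences were not tested. In BALB/c at 4 hr, the mean of 13 luminal epithelium genes was 6.59 to 7.66 after HD and 8.07 to 8.34 in sham, the mean of 7 basal genes was 7.39 to 8.22 against 8.13 to 8.65, and the mean of 6 adipocyte genes was 12.57 to 12.69 against 12.21 to 12.44. For C57BL/6 the luminal values were 7.69 to 8.24 against 8.44 to 8.56. Replicate 1 of each BALB/c group was among the arrays with skeletal muscle transcripts. The part of these transcripts in the Parp3 value was not tested. Without arrays that held other tissue the difference was 0.55 and no longer called (adjusted p = 0.136).

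For the genes of DNA-PK and the ligase complex no response was called. Differences outside Parp3 ran from −0.37 to 0.33. Prkdc responses lay between −0.04 and 0.24, those of Xrcc6 between −0.28 and 0.14, and those of Xrcc5 between −0.37 and 0.04. The lowest value belonged to Xrcc5 in BALB/c 4 hr after HD, where it read 5.82, 5.56, 5.75 and 5.36 against 6.16, 5.71 and 6.12 in sham. These groups overlapped (SE 0.16, adjusted p = 0.182 from limma). Xrcc6 in C57BL/6 4 hr after HD was at −0.28 (SE 0.12, adjusted p = 0.327). The widest interval of any response, before adjustment over probe sets, reached 0.56 to each side. Changes of that size or larger could have gone uncalled, as Parp3 1451969_s_at did at 0.61 in BALB/c 4 hr after HD. Among all probe sets, 0% were called in each of the 4 LD responses (1117 to 2901 had an unadjusted p under 0.05), 0.0177% in BALB/c 1 month after HD, 0.716% in C57BL/6 4 hr after HD and 0.915% in C57BL/6 1 month after HD. No member was called there by limma, with 0 members at an unadjusted p under 0.05 in each LD response and 1 in each of the 3 HD responses. In the 4 strain differences of responses 0% of all probe sets were called by limma (955 to 1935 at an unadjusted p under 0.05), and 2 of 28 member values had an unadjusted p under 0.05, the Parp3 values given above.

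**Figure D4:**
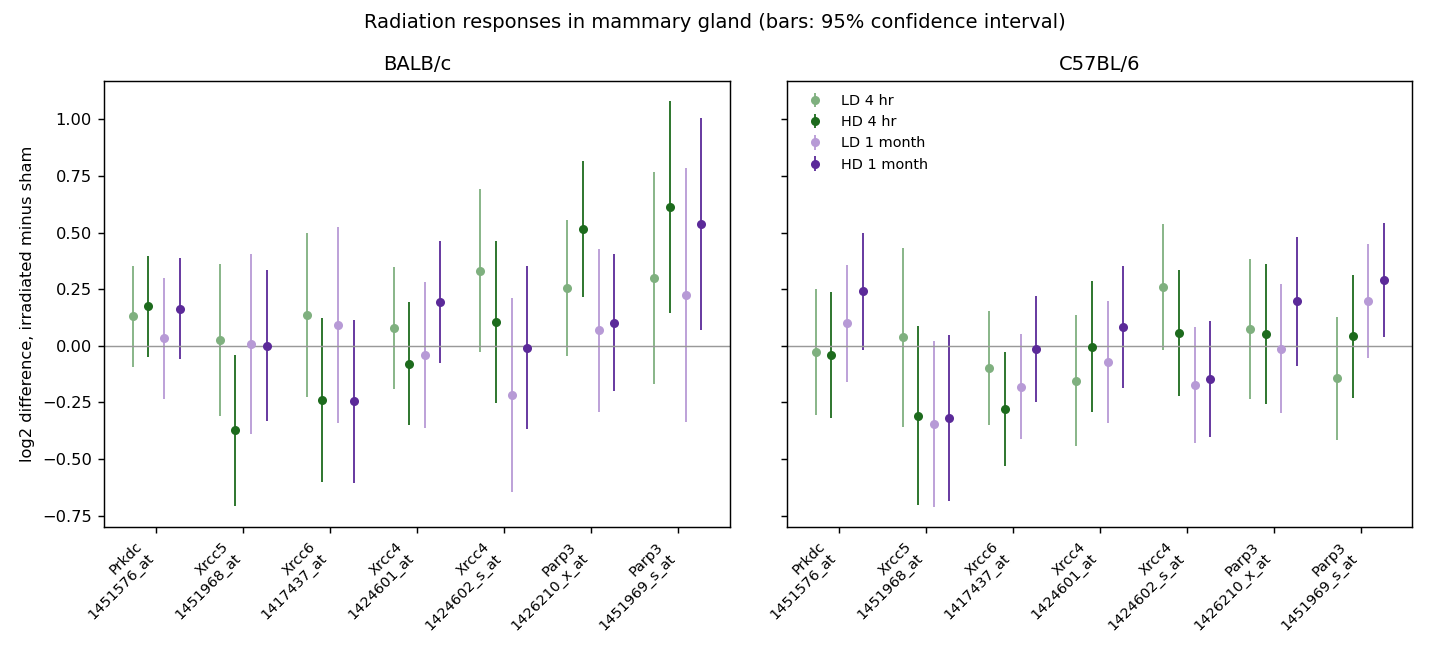
Irradiated minus sham differences in MG on the log2 scale, with 95% confidence intervals, for the 7 probe sets in BALB/c (left) and C57BL/6 (right), by dose and time. Most intervals cross 0, and the 3 highest values belong to Parp3 in BALB/c after HD, at 0.52 and 0.61 at 4 hr and 0.54 at 1 month.

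Time after the last fraction, which is also age, was compared in sham mice and then in irradiated mice. Xrcc6 fell with time in C57BL/6 MG. In the sham mice it went from 7.69, 8.01 and 7.53 at 4 hr to 7.18, 7.11, 7.14 and 7.21 at 1 month, without overlap, and it fell by 0.58 (SE 0.12, adjusted p = 0.0191). In irradiated C57BL/6 mice the 8 arrays of 4 hr lay at 7.28 to 7.88 and the 8 of 1 month at 6.72 to 7.24, again without overlap, and it fell by 0.49 (SE 0.08, adjusted p = 0.0032). It was the only member called in either comparison, where 2.84% and 3.34% of all probe sets were called. BALB/c differences were 0.13 in sham and 0.10 in irradiated mice, not called by limma, with 0 members at an unadjusted p under 0.05 in either and 0% and 0.212% of all probe sets called. The strain difference of these differences was 0.71 in sham mice (SE 0.22) and 0.59 in irradiated mice (SE 0.15), and 0% of all probe sets were called in either (adjusted p = 0.407 and 0.769 from limma, with 2 and 1 members at an unadjusted p under 0.05).

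Brown adipocyte transcripts moved with the time of sampling as well. The mean of 5 brown adipocyte genes in C57BL/6 was 7.19 to 10.56 in sham, 7.25 to 9.55 in LD and 8.23 to 8.98 in HD at 4 hr, against 6.20 to 7.05, 5.52 to 7.68 and 6.45 to 8.39 at 1 month. In BALB/c sham mice, where Xrcc6 was not called, it was 6.43 to 7.94 at 4 hr and 5.70 to 5.89 at 1 month. The part of these transcripts in the Xrcc6 difference was not tested. Leaving out the 3 arrays rich in them takes 2 of the 3 sham arrays of 4 hr and leaves 1, at 7.53, whose spread is then assumed to be that of the other groups, and the sham difference was −0.37 and not called (adjusted p = 0.418). The call also ended without sham 4 hr replicate 2 or sham 1 month replicate 2 or 3 (adjusted p up to 0.228). Of the 3 arrays rich in brown adipocyte transcripts, only LD 4 hr replicate 1 came from irradiated mice. Without it the Xrcc6 difference in time of irradiated C57BL/6 mice was still called. The HD arrays of 4 hr, at 8.23 to 8.98 for the brown adipocyte mean, stayed in. In the strain comparison of sham MG, with 1 C57BL/6 array left at 4 hr, Xrcc6 stayed lower in BALB/c.

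**Figure D5:**
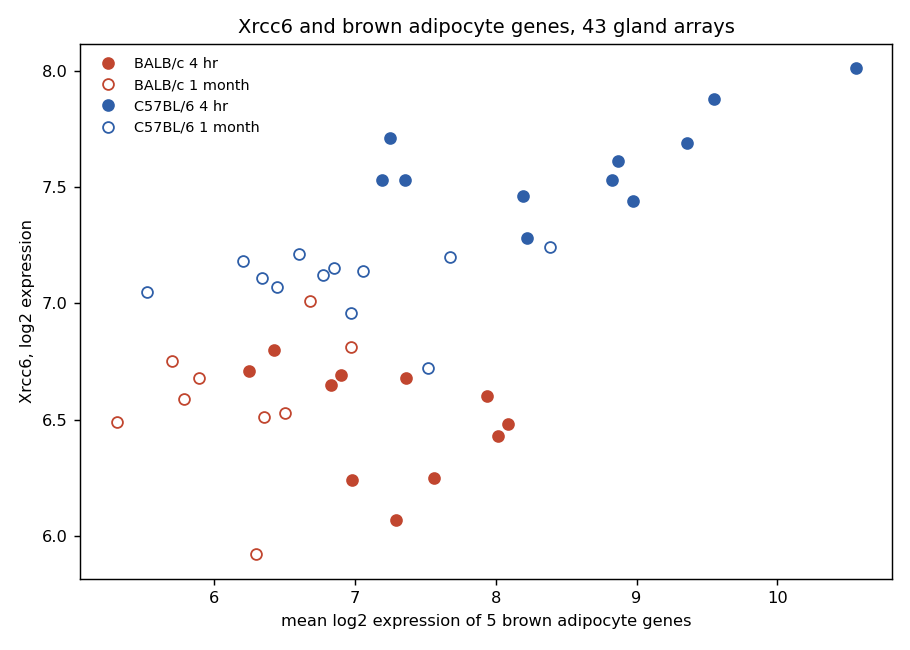
Xrcc6 log2 expression (vertical axis) against the mean log2 expression of 5 brown adipocyte genes (horizontal axis) in each MG array, by strain and time. C57BL/6 arrays of 4 hr lie at 7.28 to 8.01 for Xrcc6, C57BL/6 arrays of 1 month at 6.72 to 7.24, and BALB/c arrays at 5.92 to 7.01. The brown adipocyte mean runs from 5.31 to 8.09 in BALB/c arrays and reaches 10.56 in C57BL/6 arrays.

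Prkdc values in C57BL/6 sham mice were also lower at 1 month (6.33 to 6.67) than at 4 hr (6.74 to 7.08) without overlap, a difference of −0.38 (SE 0.13) that was not called (adjusted p = 0.126). Its strain difference in time was 0.48 (adjusted p = 0.468 from limma). For Parp3, Xrcc5 and Xrcc4 no time difference was called in either strain.

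Other genes of the pathway were counted next, each by its brightest probe set in the tissue. In sham MG 9.14% of all probe sets were called. Of 9 measured further end-joining genes, 1 was called in sham MG, Ercc6l2, which encodes a helicase-like end-joining factor, at −0.53 in BALB/c (SE 0.08, adjusted p = 0.00164). Of 8 genes of alternative end joining, 1 was called, Rad50, a subunit of the MRN complex that tethers ends, at 0.24 (SE 0.07, adjusted p = 0.0449). None of 11 break-signalling genes and none of 14 other ADP-ribosyltransferase family genes was called by limma, with 0 and 3 of them at an unadjusted p under 0.05. Other probe sets of these genes did not all follow: for Ercc6l2 1 of the other 3 was called, and the second Rad50 probe set was at −0.09. In sham MG the medians were −0.04 for both end-joining lists, 0.02 for break signalling and 0.03 for the ADP-ribosyltransferases, against 0.01 over all probe sets.

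In irradiated MG, where 25.3% of all probe sets were called, Ercc6l2 was again lower in BALB/c (−0.40) and Rad50 higher (0.44). Of the end-joining list 1 gene was higher, Aplf (0.19), an end-binding scaffold protein, and 1 lower. Of break signalling 4 were higher, Chek2 (0.49), Atr (0.24), Brca1 (0.23) and Rif1 (0.20), and 1 was lower. The other probe sets of Brca1 (−0.09, 0.06 and 0.06) and of Rif1 (0.04) were not called. Among the ADP-ribosyltransferases 3 were higher and 0 lower, Adprhl2 (0.30), a hydrolase that removes ADP-ribose, Parp9 (0.20) and Parp1 (0.14), the main strand-break sensor of the family. The other probe sets of Parp1 (0.08 and 0.03) and the second Rad50 probe set (−0.06) were not called. The differences called for Adprhl2, Parp9 and Parp1 have the opposite sign to that of Parp3. In blood, where 0.482% of all probe sets were called, no gene of these lists was called by limma. There 5 of the genes measured, 3 of break signalling and 2 ADP-ribosyltransferases, had an unadjusted p under 0.05. Medians in blood ran from 0.04 to 0.10 for the 4 lists, against 0.02 over all probe sets.

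After irradiation 1 of 8 genes of alternative end joining and 2 of 11 of break signalling were called in BALB/c 4 hr after HD, all lower, where 5.14% of all probe sets were called. These were Lig1, the replicative DNA ligase (−1.03, adjusted p = 0.0382), H2ax, the histone that marks breaks (−0.94, adjusted p = 0.0372), and Trp53bp1, which steers breaks to end joining (−0.49, adjusted p = 0.0428). In the same comparison 0 of 19 proliferation genes were called by limma, but 18 of the 19 were negative, 14 had an unadjusted p under 0.05 and their median was −0.99. Luminal and basal marker values were lower in these arrays too, as given above. The part of either in these differences was not tested. At 1 month after HD in C57BL/6, 0.915% of all probe sets were called. Lig3, a ligase of alternative end joining (1 of 8 genes called), was lower (−0.58, adjusted p = 0.0402). Parp10 (1 of 14 ADP-ribosyltransferases called) was higher (0.45, adjusted p = 0.0494). With time in C57BL/6, Rif1 (1 of 11 break-signalling genes called) rose in sham mice (0.52, adjusted p = 0.028), where 2.84% of all probe sets were called. Parp9 (0.44) and Parp14 (0.54), 2 of 14 ADP-ribosyltransferases, rose in irradiated mice, where 3.34% were called. The other probe sets of Trp53bp1, Lig3 and Rif1 are not given for these comparisons.

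The genes around Parp3 on chromosome 9 were read in the same way. Of 13 neighbours with a probe set 2 were called in sham MG, beside 9.14% of all probe sets, Abhd14b, 17.4 kb away (−0.65, adjusted p = 0.00108), and Alas1, the first enzyme of heme synthesis, 222 kb away (−1.07, adjusted p = 7.79e-05), both lower in BALB/c. Both were lower in irradiated MG also (−0.83 and −1.24), where Manf (0.30) and Tex264 (0.19) were higher. These were the only neighbours called there, beside 25.3% of all probe sets. The nearest neighbour, Rrp9, which encodes a component of the small nucleolar ribonucleoprotein and starts 0.36 kb from Parp3, differed by 0.00063 in sham MG and was not called in irradiated MG. No neighbour was called in blood by limma (0 of 13 at an unadjusted p under 0.05). Abhd14b had a difference of −1.65 there, of the same sign as that of Parp3 and with a wide error (SE 0.99). The blood arrays that held liver transcripts, BALB/c replicate 2 and C57BL/6 replicate 4, were included. Their part in this value was not tested.

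Likeness of pattern was described by Pearson's r over the 43 MG arrays after subtraction of the group means, which share plate and tissue makeup, and no p was computed. The probe sets of Parp3 followed each other at r = 0.454, and those of Xrcc4 at r = 0.067. Ku and kinase transcripts showed little common variation, at r = 0.125 for Xrcc5 with Xrcc6, −0.043 for Prkdc with Xrcc5 and 0.174 for Prkdc with Xrcc6, and Prkdc with Xrcc4 1424602_s_at reached 0.502. The genes most like Prkdc were Bcap31 (0.690), Tor1a (0.676) and Dock6 (0.656), those most like Xrcc5 were Nipsnap1 (0.641), Syne4 (0.626) and Pfdn1 (0.62), and those most like Xrcc6 were Mrps2 (0.724), Eif5a (0.715) and Ndufaf4 (0.691). For Xrcc4 they were Msmb (0.638), Dnajc24 (0.604) and Arhgef25 (0.585) by 1424601_at and Lrrk1 (0.684), Wac (0.681) and Cdh2 (0.677) by 1424602_s_at. For Parp3 they were Degs1 (0.747), Zfand3 (0.700) and Mtmr6 (0.689) by 1426210_x_at and Zbtb7b (0.779), Atp6v0a1 (0.769) and Spsb1 (0.732) by 1451969_s_at. With group means kept, so that the strain and plate difference counted, the Parp3 probe sets reached r = 0.918 with each other, and the genes most like them were Abhd16a (0.910), Cdsn (0.908) and Kif5b (0.902) by 1426210_x_at and Arl2bp (0.962), Mfap1a (0.948) and H2-Q10 (0.945) by 1451969_s_at.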

How the data were processed

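The authors deposited log2 expression values from Affymetrix HT Mouse Genome 430A arrays, computed by robust multi-array average (RMA), and the submitters' processing notes name RMA and limma without versions. No background or normalization step was repeated. No read depth applies, and the number of arrays limits the precision. Values of 51 arrays and 22626 probe sets were analysed with limma 3.58.1 in R 4.3.3 (group means, empirical Bayes, Benjamini-Hochberg over all probe sets, adjusted p under 0.05), blood and MG apart. Gene symbols came from the platform annotation, in which 18003 probe sets have 1 symbol, 287 several and 4336 none. The fit was also tested on simulated data with independent noise, which hold no plate or tissue structure. The members, gene lists and tests were chosen with earlier results of these data known. Named were all members, Cdkn1a, up to 4 called genes with the smallest p per list, and the 3 genes most like each probe set. Genes of the p53 target and proliferation lists were not named, apart from Cdkn1a. Time comparisons in irradiated mice and strain differences in time were added after the data were seen. Alternatives were array weights, median centring, a replicate block, plate column, variance trend, level filter, and left-out arrays or times. Same-numbered arrays of the strains or groups did not deviate together (mean r of 0.0145, 0.0124 and −0.128 in BALB/c MG, C57BL/6 MG and blood), so numbers were not taken to pair mice. P-values set each difference against the spread between mice on these plates. In the MG strain comparisons they cannot cover a difference between the plates.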

Additional observations from a re-analysis of the deposited data

Results flagged for a closer look

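Of 70 groups of 4 arrays of a probe set, 3 held an array far from the others, and chance alone gives about 1 in 20. Prkdc was at 6.48 in C57BL/6 LD 4 hr replicate 3, against 6.91 to 6.99 in the other 3 mice. Xrcc5 was at 6.34 in C57BL/6 sham 1 month replicate 3, against 5.88 to 5.94. Parp3 1426210_x_at was at 9.50 in BALB/c HD 1 month replicate 2, against 9.15 to 9.17. No member's radiation response or time difference was called as different between the strains.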

How the results depend on the processing

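The Parp3 and Xrcc6 strain differences of sham and irradiated MG were called under every alternative that kept both times. Single times were run for sham MG only, where Parp3 was called at each. From the sham arrays of 4 hr alone Xrcc5 turned to 0.0780. From those of 1 month alone Prkdc turned to 0.22 and Xrcc6 was at −0.49 and not called. Centring arrays on their median turned Prkdc in sham MG to 0.00535.

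With a replicate block, blood held 0 calls (Parp3 1451969_s_at −1.96, adjusted p = 0.0914) and BALB/c 4 hr after HD held 0 (Parp3 1426210_x_at 0.53, adjusted p = 0.0755), and no other call changed. With the plate column as a covariate blood held 0 calls (Parp3 −2.14, adjusted p = 0.409; Prkdc −0.11 and Xrcc5 0.31, both turned in sign), and BALB/c 4 hr after HD held 0 (0.55, adjusted p = 0.382). With array weights blood held 2 calls (Parp3 1426210_x_at −0.98, adjusted p = 0.0431), and Prkdc was at −0.000659. Without arrays that held other tissue, Prkdc in blood was at −0.0402, BALB/c 4 hr after HD held 0 calls (0.55), and C57BL/6 sham time held 0 (Xrcc6 −0.35, adjusted p = 0.541), with 1 of 3 sham arrays of 4 hr left. Without the arrays rich in brown adipocyte transcripts, an alternative chosen after seeing the data, Xrcc6 in C57BL/6 sham time was at −0.37, again with 1 sham array of 4 hr, assumed to vary like the other groups. All MG arrays in 1 fit gave 2 calls in BALB/c 4 hr after HD (Parp3 1451969_s_at 0.61, adjusted p = 0.0395). The cause was not tested. A filter on level gave no value for probe sets below the median.

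Leaving out each array, blood Parp3 ranged from −2.10 to −1.84, Xrcc6 from −0.305 to 0.571, and the pair difference of Xrcc4 from −0.17 to 0.13. In sham MG, Prkdc ranged from −0.0565 to 0.0362, Xrcc5 from −0.109 to 0.0220, Xrcc6 from −0.90 to −0.76 and Parp3 1451969_s_at from −2.01 to −1.82. Calls in irradiated MG numbered 3 to 4 (Xrcc4 1424602_s_at −0.27 to −0.16), in BALB/c 4 hr after HD 0 to 2 (Parp3 1426210_x_at 0.45 to 0.61), and in C57BL/6 sham time 0 to 1 (Xrcc6 −0.69 to −0.45).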
